A study of Rattus norvegicus with 9 samples.

Results

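The Ensembl-annotated lncRNA transcripts of cultured rat renal artery endothelial cells were taken as the rows of the deposited lncRNA table that carry an Ensembl rat transcript identifier and reach a mean of 10 counts or more over the 9 libraries. They were chosen by this mean count alone, which uses no comparison between groups, and 253 of 788 Ensembl transcripts were kept, in a list of 16814 lncRNA transcripts. The cells were used over a range of passages, per the labels, and the 9 libraries fall into 3 groups of 3. The groups are Normal, without a stated agent, Model, which the series title ties to angiotensin II (Ang II), and a group labelled Calycosin and Tanshinone IIA, called treated here. Doses, times and whether the compounds were given on top of the Model condition are not stated in the labels. Nothing says that the 3 libraries of a group are separate cultures, and p-values then reflect only how far these libraries differ, which may be technical.

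Long non-coding RNAs are transcripts with no known protein product that can act in the nucleus, where some hold chromatin or splicing factors together, or in the cytoplasm, where some bind mRNAs, microRNAs or proteins. An Ensembl transcript identifier stands for 1 annotated isoform, that is, 1 combination of start site, exons and end, and several isoforms may share a gene. Short reads from exons that isoforms have in common have to be divided between them, so a count for an isoform is less direct than a count for its gene. In endothelial cells of other vessels some lncRNAs are known to bear on proliferation and on the response to low oxygen and inflammation. The files pair the identifiers with no gene symbols, and 0 of 47357 genes in the RefSeq reference list carry an Ensembl rat identifier, so the transcripts are named by identifier, with no position, promoter or other sequence. For the same reason the labelled cell type could not be checked against endothelial markers here.

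Library totals ran from 7.98 to 18.3 in units of 1e6 counts in the gene table and from 0.711 to 1.58 in the lncRNA table, with the smallest totals of both tables in treated libraries 2 and 3. The 253 transcripts held 19.9% ± 1.01 of the lncRNA counts in Normal, 18.7% ± 1.58 in Model and 17.8% ± 1.02 with the compounds (SD, n = 3). The shares of single libraries overlapped between all 3 groups. For a transcript of the median length, 1173 nt, 3 counts correspond to 0.134 to 0.306 FPKM (fragments per kilobase of transcript and per 1e6 fragments, as deposited by the authors). Of the 253, 247 were above 0 in all 9 libraries. Because RNA was taken from whole cultures, a transcript made by fewer cells and one made at a lower level per cell cannot be told apart.

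Levels per length were very uneven. By mean FPKM over the 9 libraries, 7 transcripts were at 100 or more, 29 between 10 and 100, 167 between 1 and 10 and 50 below 1, with a median of 2.54. The 7 most abundant held 86.7% to 89.5% of all counts of the 253 in a library. Between the 7th, ENSRNOT00000092949 at a mean of 846.1 FPKM, and the 8th, ENSRNOT00000075924 at 86.9 FPKM, the level dropped by about an order of magnitude, a step that no other neighbours among the 15 most abundant showed.

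ENSRNOT00000079055, 331 nt long, was the most abundant feature in both tables by FPKM. Its level was 14221, 15024 and 13504 FPKM in Normal, 14519, 12866 and 13420 in Model and 13110, 12592 and 13079 with the compounds. The treated libraries were the tightest, and they overlapped the Model libraries but not the Normal ones in FPKM. After scaling to the lncRNA table the treated group overlapped Normal as well, and the log2 fold change was -0.17 ± 0.10 (SE, n = 3 per group, quasi-likelihood test of edgeR with Benjamini-Hochberg adjustment, adjusted p = 0.803).

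ENSRNOT00000082705, 300 nt long, ranked next. It was at 13269, 11962 and 12756 FPKM in Normal, at 13439, 8289 and 9325 in Model and at 9168, 8348 and 6130 with the compounds. All 3 treated libraries lay below all 3 Normal libraries, while Model held values of both levels. The log2 fold change of treated against Normal was -0.70 ± 0.27, with an unadjusted edgeR p of 0.0367 that did not hold after adjustment (edgeR adjusted p = 0.681; DESeq2 adjusted p = 0.106).

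ENSRNOT00000088597 has the same length of 300 nt and was at 1690, 1598 and 1524 FPKM in Normal, 1867, 1271 and 1082 in Model and 1385, 1808 and 1421 with the compounds. Its groups overlapped in every comparison, and its treated against Normal log2 fold change was -0.09 ± 0.23 (edgeR adjusted p = 0.982). Whether these 2 transcripts of equal length are near-identical copies that share reads was not tested, so the split of counts between them is uncertain. ENSRNOT00000090903, 272 nt long, was at a mean of 3821 ± 119 FPKM in Normal, 3533 ± 631 in Model and 3479 ± 259 with the compounds (SD, n = 3), with a treated against Normal log2 fold change of -0.16 ± 0.15 (edgeR adjusted p = 0.899).

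Of the 7, ENSRNOT00000092869, 709 nt long, varied most. Its level was 1051, 2955 and 2859 FPKM in Normal, 988, 1091 and 2771 in Model and 1125, 2989 and 1539 with the compounds. Each group thus held both low and high libraries, and its groups overlapped in every comparison. ENSRNOT00000093096, 2350 nt long, was steady in contrast, at 1301 ± 152 FPKM in Normal, 1252 ± 152 in Model and 1373 ± 150.2 with the compounds (SD, n = 3). ENSRNOT00000092949, 695 nt long, was at 793 ± 55.01, 766 ± 137 and 980 ± 233 FPKM, and its treated against Normal log2 fold change of 0.27 ± 0.13 did not pass (edgeR adjusted p = 0.733).

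**Figure D1:**
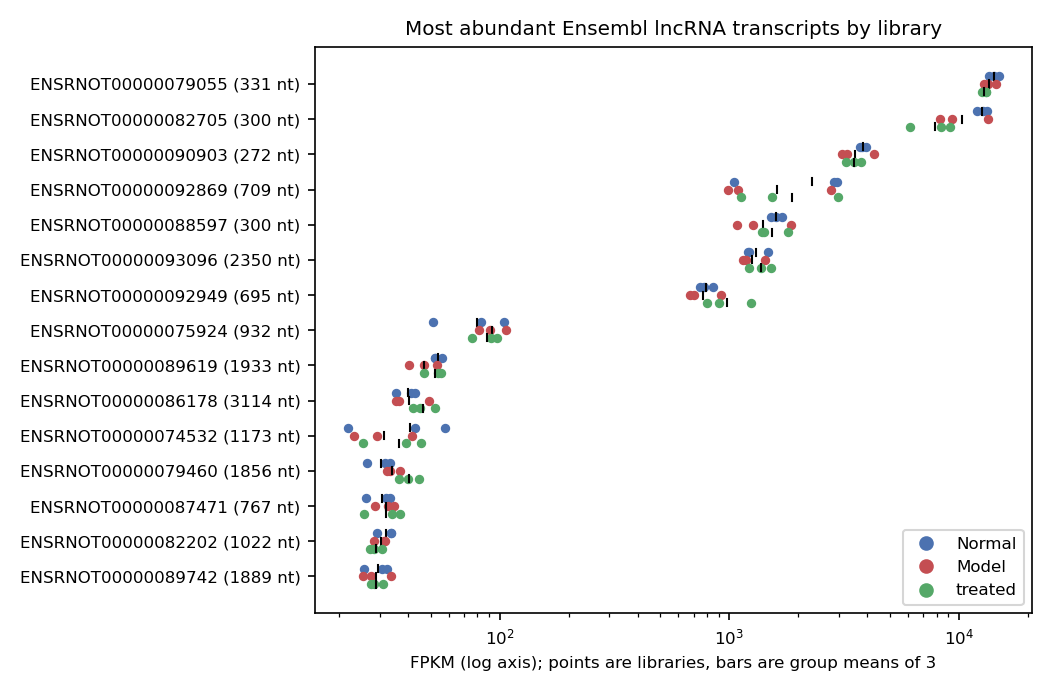
FPKM on a log axis of the 15 Ensembl lncRNA transcripts with the highest mean, with 1 point per library, colour for the group and a black bar for each group mean of 3 libraries. The first 7 lie at a mean of 846.1 FPKM or above, apart from the other 8, and the points of ENSRNOT00000092869 split into a low and a high set inside each group.

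The counts of many of these transcripts recur in the gene table. For 145 of the 253, all 9 counts were identical to those of 1 Ensembl gene row, although no 2 of the 12714 gene rows with a mean of 10 or more share all 9 counts. Among lncRNA rows from other sources at the same mean count, 1 of 6443 NONCODE transcripts and 0 of 1339 assembled transcripts equalled a gene row in this way. Transcript lengths recovered from counts and FPKM were the same in both tables for 133 of the 134 pairs in which both could be computed. The exception was ENSRNOT00000083393, with 467 nt in the lncRNA table and 1015 nt in the gene table. The scale of the lncRNA lengths was itself set from the gene lengths of these pairs. Only the lengths of pairs relative to each other could therefore differ. These gene rows hold the same reads as the lncRNA rows, so a result in one table is no independent support for the other.

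A further 52 transcripts added up to gene rows in sets. Sums of 2 Ensembl lncRNA rows equalled a gene row in all 9 libraries for 25 loci, and sums of 3 rows did so for 5 loci. In this way 197 of the 253 transcripts were tied to a gene identifier, and 56 were not tied by identity or by sums of up to 3 rows. At 19 of the 30 loci with several rows, at least 2 of the rows belong to the 253.

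The locus of gene row ENSRNOG00000055317 shows what such a set looks like. ENSRNOT00000081689, 6316 nt long, had 120, 35 and 0 counts in Normal, 81, 22 and 38 in Model and 20, 5 and 0 with the compounds. ENSRNOT00000078959, 6183 nt long, had 5, 78 and 110 counts, 4, 103 and 84, and 128, 68 and 75 in the same libraries. ENSRNOT00000081689 held most counts of the locus in Normal 1 and Model 1, and ENSRNOT00000078959 held most in the other 7 libraries. Scaled to the library, the treated libraries did not overlap the Model libraries for either transcript, lower for the first and higher for the second, and neither difference passed (edgeR adjusted p = 0.862 and 0.931). Their sum was 125, 113 and 110 counts in Normal, 85, 125 and 122 in Model and 148, 73 and 75 with the compounds. Scaled to library depth, the sum varied with a coefficient of variation (CV, SD over mean, 9 libraries) of 12.0%, against 119% and 59.0% for the single transcripts. In the gene table that row was at 8.88 ± 0.480 CPM (counts per 1e6 counts of the library in the table used) in Normal, 7.16 ± 0.733 in Model and 8.78 ± 0.580 with the compounds (SD, n = 3). CPM of gene rows is scaled to the gene table and CPM of transcripts to the smaller lncRNA table. The CPM of a transcript and of its gene row therefore cannot be compared directly. Its Model against Normal log2 fold change was -0.31 ± 0.13 (edgeR adjusted p = 0.999 over the gene table).

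The most abundant locus of this kind, gene row ENSRNOG00000046705, joins ENSRNOT00000075924 (932 nt) and ENSRNOT00000074532 (1173 nt). The first had 1094, 1371 and 616 counts in Normal, 1045, 1417 and 1787 in Model and 1628, 756 and 606 with the compounds. The second had 708, 361 and 872, then 670, 574 and 488, then 873, 248 and 456. In 8 libraries the first was the larger of the 2, and in Normal 3 the second was. The sum of both had a CV of 3.81%, against 19.4% and 33.4% for the transcripts. The gene row was at 127.9 ± 6.20 CPM in Normal, 129.6 ± 3.96 in Model and 130.4 ± 6.18 with the compounds (SD, n = 3), with a treated against Normal log2 fold change of 0.03 ± 0.06 (edgeR adjusted p = 0.841 over the gene table).

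At gene row ENSRNOG00000061122, ENSRNOT00000092035 had 11, 23 and 0 counts in Normal, 17, 0 and 0 in Model and 44, 0 and 0 with the compounds. It was thus present in 4 libraries, replicate 1 of each group and Normal 2, and at 0 in the other 5, which came from all 3 groups. Its partner ENSRNOT00000091253 had 5, 7 and 25 counts, 7, 34 and 31, and 14, 28 and 10, and held every count of the locus in those 5 libraries. A count of 0 still allows up to 3 counts in a library, for counting error only. At gene row ENSRNOG00000061155, 3 transcripts shared the counts, with CVs of 49.4% for ENSRNOT00000089993, 32.8% for ENSRNOT00000085965 and 20.4% for ENSRNOT00000087733, while their sum had a CV of 7.15%.

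**Figure D2:**
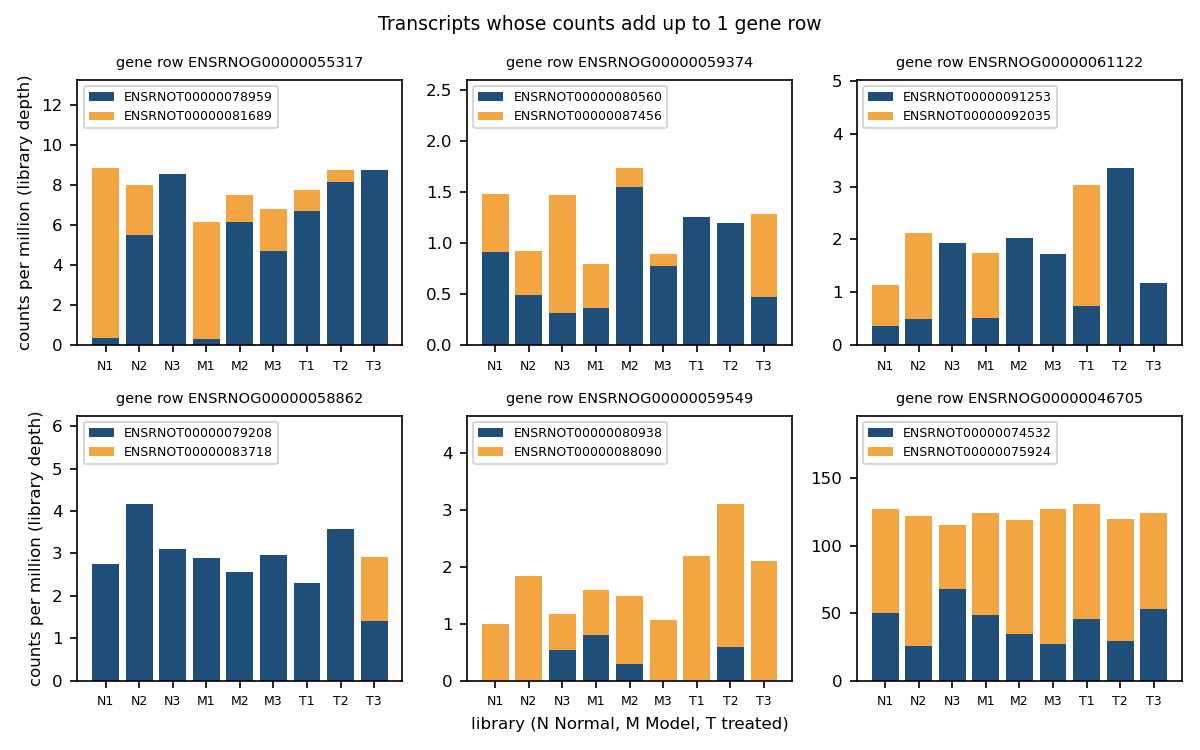
Counts per 1e6 counts of library depth for the transcripts of 6 loci, stacked, so that the height of a bar is the level of the gene row; the 9 bars of a panel are the Normal, Model and treated libraries. The loci are the 5 in which a transcript's share of the locus changed most over the libraries and the most abundant one, and in the panel of ENSRNOG00000055317 the bar height stays within a CV of 12.0% while the colours swap.

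Over all 30 loci, the sum had a median CV of 15.5%, and the 52 transcripts had a median CV of 24.7%. Of the 52, 47 varied more than the sum of their locus. A sum averages out counting error, so part of this difference follows from the arithmetic. The sum varied less than every one of its rows at 25 loci and not at the other 5. One of those 5 was gene row ENSRNOG00000051085, with a CV of 27.0% for the sum and 23.1% for the steadier row. At ENSRNOG00000056265 the sum was itself unsteady, with a CV of 40.4%: ENSRNOT00000090459 had 340, 343 and 132 counts in Normal, 313, 465 and 180 in Model and 145, 208 and 241 with the compounds.

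**Figure D3:**
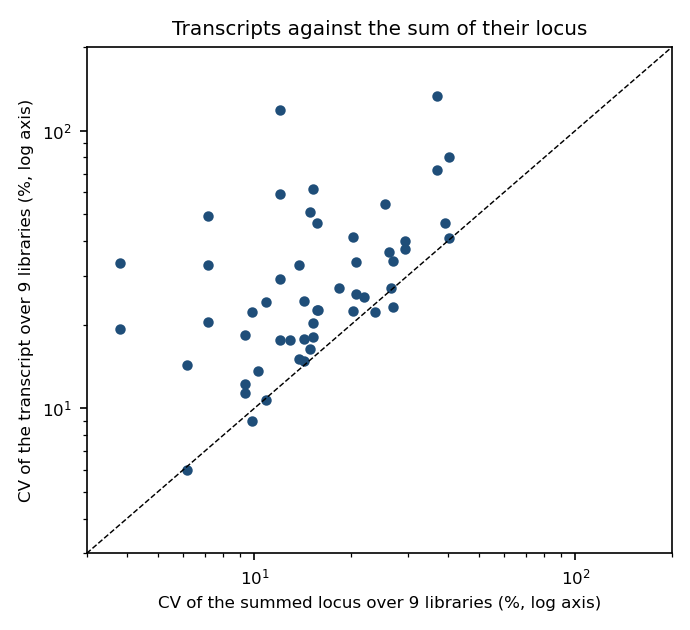
CV over 9 libraries of 52 Ensembl lncRNA transcripts (vertical, log axis) against the CV of the sum of their locus (horizontal, log axis), with a dashed line where both are equal. Of the 52 points, 47 lie above the line.

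Large steps between libraries were looked for in all tested transcripts, as the largest gap between neighbouring values of log2 CPM. Of the 252 tested, 10 had a gap of 4-fold or more, and of all 8653 tested lncRNAs 467 did. The largest was that of ENSRNOT00000084733 (3784 nt), a 20.1-fold gap, with 77, 87 and 1 counts in Normal, 54, 118 and 116 in Model and 80, 41 and 48 with the compounds. Normal 3 alone stood apart. ENSRNOT00000079074 (215 nt) had 58, 48 and 46 counts in Normal, 1, 52 and 45 in Model and 44, 32 and 25 with the compounds, with Model 1 alone low and a gap of 11.3-fold. That row is identical to the whole gene row ENSRNOG00000059255, so its step is present at the gene level too.

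ENSRNOT00000090050 (528 nt) had 77, 0 and 0 counts in Normal, 111, 135 and 97 in Model and 40, 62 and 48 with the compounds. In CPM, all Model libraries lay above all Normal libraries, but Normal 1 lay within the range of the treated libraries. The difference between Model and Normal did not pass (edgeR adjusted p = 0.9996). In FPKM these groups overlapped, with Normal 1 at 10.30 and Model 3 at 10.25. ENSRNOT00000081159 (797 nt) had 68, 101 and 132 counts in Normal, 4, 110 and 117 in Model and 179, 31 and 0 with the compounds. Its low libraries, Model 1 and treated 3, belong to different groups. The remaining transcript of the 5, ENSRNOT00000078959, is that of ENSRNOG00000055317 described above, where Normal 1 and Model 1 had 5 and 4 counts and the sum of the locus had 125 and 85.

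The lncRNA rows whose log2 CPM was most like each of these 5 over the 9 libraries came from other sources. Only 252 of the 8653 tested lncRNAs belong to the transcripts studied here, so nearly all candidates lay outside them. MSTRG.5188.1 had a Pearson r of 0.985 with ENSRNOT00000084733, NONRATT018095.2 of 0.965 with ENSRNOT00000090050 and NONRATT025583.2 of 0.993 with ENSRNOT00000079074. NONRATT005307.2 had an r of 0.985 with ENSRNOT00000078959 and NONRATT000317.2 of 0.956 with ENSRNOT00000081159. Each was the highest r among all tested lncRNAs over 9 libraries that share their depth and normalization. Each of the 5 has 1 or 2 low libraries, so the values are descriptions only.

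**Figure D4:**
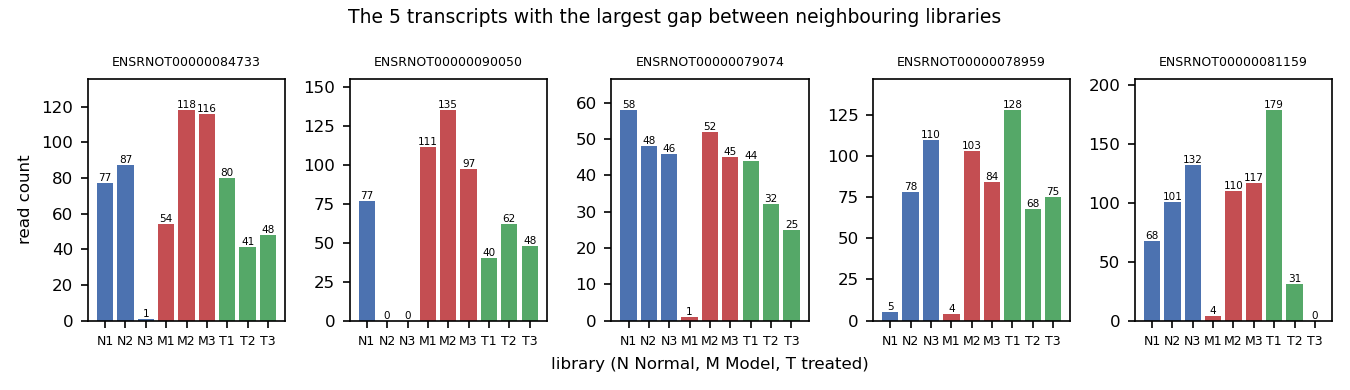
Read counts per library of the 5 Ensembl lncRNA transcripts with the largest gap between neighbouring libraries, with bars coloured by group and the count above each bar. The low libraries are Normal 3, Normal 2 and 3, Model 1, Normal 1 with Model 1, and Model 1 with treated 3 in the order of the panels; in the panel of ENSRNOT00000090050 the 3 Model bars are also the tallest.

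The first comparison, Model against Normal, concerns the effect of the Model condition. None of the 252 tested transcripts was called by edgeR at an adjusted p below 0.05, where 5 of all 8653 lncRNAs were (0.0578%), and DESeq2 called 0 of the 219 to which it gave an adjusted p, against 0.182% of all lncRNAs. Without adjustment, edgeR gave 8 transcripts a p below 0.05, or 3.17%, against 3.83% of all lncRNAs. Of these, 5 were higher in Model (background 2.02%) and 3 lower (background 1.8%). Groups that do not overlap were found for 24, or 9.52%, against 10.1% of all, with 15 higher (background 5.59%) and 9 lower (background 4.53%). The median log2 fold change was -0.0069 over the 252 and 0.0043 over all tested lncRNAs. The shares lay near or below the background.

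ENSRNOT00000090380 (5614 nt, 0.233 FPKM on average) had the smallest p. With 3 counts in every Normal library, it was at 2.52, 2.65 and 2.69 CPM there, at 33.1, 34.3 and 15.9 CPM in Model, and at 1.29, 22.3 and 26.3 CPM with the compounds. Model lay above Normal without overlap, and treated library 1 alone was as low as Normal. The log2 fold change was 3.35 ± 0.91 (edgeR adjusted p = 0.9996; DESeq2 adjusted p = 0.0849). The adjusted p depended on treated library 1, since it was 0.0146 in the fit without that library and 0.0242 in a fit of the Normal and Model libraries alone, with a log2 fold change of 3.34 in both. This transcript was not tied to a gene row. Its mean of 17.1 counts rests mostly on the 35, 50 and 22 counts of the Model libraries.

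Other transcripts higher in Model by their means were low or little different. ENSRNOT00000086870 (491 nt) averaged 5.54 ± 2.08 CPM in Normal against 12.8 ± 0.419 CPM in Model (SD, n = 3). Its log2 fold change of 1.19 ± 0.35 rests on 5, 9 and 5 counts in Normal. ENSRNOT00000093006 (540 nt) was at 91.5 ± 8.94 and 120.2 ± 15.1 CPM (0.39 ± 0.14), ENSRNOT00000079460 at 674 ± 54.2 and 787 ± 16.3 CPM (0.22 ± 0.08) and ENSRNOT00000083877 at 27.2 ± 5.23 and 40.9 ± 7.92 CPM (0.58 ± 0.24). The edgeR adjusted p was 0.9996 for all 4, and all 4 had Model libraries above the Normal libraries without overlap in CPM. In FPKM the groups of ENSRNOT00000079460 overlapped.

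On the lower side, ENSRNOT00000077618 (732 nt) averaged 32.9 ± 6.78 CPM in Normal against 21.4 ± 1.76 CPM in Model, ENSRNOT00000081316 averaged 18.4 ± 4.07 against 11.4 ± 1.02 CPM and ENSRNOT00000077404 averaged 45.9 ± 2.51 against 33.8 ± 4.59 CPM (SD, n = 3). Their log2 fold changes were -0.62 ± 0.23, -0.69 ± 0.28 and -0.44 ± 0.20. ENSRNOT00000092494, at 21.3 ± 7.97 and 12.7 ± 2.10 CPM, overlapped between the groups, while ENSRNOT00000091145, at 33.3 ± 8.40 and 23.9 ± 3.31 CPM, did not. In FPKM the latter overlapped too, with Normal 2 at 3.63 and Model 2 at 3.86. None of the 5 passed (edgeR adjusted p = 0.9996 for each).

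The comparison of treated with Model libraries bears on the compounds only where both groups share the Model condition, which the labels leave unsaid. Again 0 of 252 transcripts were called by edgeR, where 11 of 8653 lncRNAs were (0.127%), with a smallest adjusted p of 0.666, and DESeq2 called 0 of 251, against 0.404% of all. Without adjustment, 16 had an edgeR p below 0.05, or 6.35%, against 6.54% of all lncRNAs, with 8 higher (background 3%) and 8 lower (background 3.54%). Non-overlapping groups were found for 31, or 12.3%, against 12.6% of all, with 18 higher (background 6%) and 13 lower (background 6.62%). The median log2 fold change was 0.014 over the 252 and -0.0078 over all.

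ENSRNOT00000088090 (1303 nt) had the smallest p in this comparison. It was at 11.8, 22.9 and 7.18 CPM in Normal, 10.4, 13.7 and 13.7 in Model and 27.2, 29.3 and 23.7 CPM with the compounds. All treated libraries were above all others, and the log2 fold change against Model was 1.07 ± 0.37 (edgeR adjusted p = 0.666). It adds up with the low row ENSRNOT00000080938 to gene row ENSRNOG00000059549. Scaled to the gene table, that row was at 1.40 ± 0.465, 1.45 ± 0.294 and 2.58 ± 0.569 CPM (SD, n = 3). Its log2 fold change against Model was 0.81 ± 0.28 (edgeR adjusted p = 0.256 over the gene table).

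The other transcripts with the smallest p on the higher side were ENSRNOT00000083236 (30.1 ± 5.92 CPM in Model, 46.8 ± 11.9 CPM treated), ENSRNOT00000084701 (19.7 ± 3.76 and 30.5 ± 8.32), ENSRNOT00000089993 (8.38 ± 4.06 and 17.3 ± 5.63) and ENSRNOT00000092788 (9.76 ± 2.74 and 19.1 ± 7.65; SD, n = 3). The third of these, one of the 3 transcripts of ENSRNOG00000061155, overlapped between the groups. Its gene row, scaled to the gene table, was at 29.3 ± 0.875 CPM in Model and 27.4 ± 3.44 CPM with the compounds. The fold change of that row had the opposite sign (-0.09 ± 0.09 on the log2 scale, edgeR adjusted p = 0.739 over the gene table).

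On the lower side, ENSRNOT00000083393 was at 49.2 ± 9.04 CPM in Model and 32.9 ± 5.87 CPM with the compounds (-0.57 ± 0.21), and ENSRNOT00000083877 at 40.9 ± 7.92 and 26.8 ± 4.12 CPM (-0.63 ± 0.24; SD, n = 3). The latter is also among those with the smallest p for Model against Normal, and both comparisons use the same Model libraries, of 37.9, 35.0 and 49.9 CPM. ENSRNOT00000093393 was at 93.6 ± 16.2 and 68.9 ± 3.21 CPM, ENSRNOT00000076154 at 301.6 ± 35.9 and 236.5 ± 42.3 CPM, and ENSRNOT00000071091 at 12.1 ± 2.06 and 7.11 ± 0.602 CPM. Of these 5, only ENSRNOT00000076154 overlapped between treated and Model. Their edgeR adjusted p lay between 0.713 and 0.739.

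The third comparison, treated against Normal, joins the compounds with the Model condition only if the treated cells had both, which the labels leave unsaid. EdgeR called 0 of 252, where 16 of 8653 lncRNAs were called (0.185%), with a smallest adjusted p of 0.224, and DESeq2 called 0 of 228, against 0.479% of all. Without adjustment, 14 transcripts had an edgeR p below 0.05, or 5.56%, against 6.98% of all, with 7 higher (background 3.5%) and 7 lower (background 3.48%). Non-overlapping groups were found for 32, or 12.7%, against 13.7%, with 18 higher (background 6.82%) and 14 lower (background 6.9%). The median log2 fold change was 0.013 over the 252 and -0.0046 over all.

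ENSRNOT00000079460 (1856 nt, 34.9 FPKM on average) came nearest to the threshold. It was at 697, 612 and 713 CPM in Normal, 806, 779 and 777 in Model and 837, 866 and 931 with the compounds. In CPM scaled to the lncRNA table the 3 groups did not overlap, in the order Normal, Model, treated. In FPKM both neighbouring pairs overlapped, since Normal 3 at 33.28 lay above Model 1 at 33.21 and Model 3 at 32.28, and Model 2 at 36.63 lay above treated 1 at 36.52. The log2 fold change of treated against Normal was 0.38 ± 0.08 (edgeR adjusted p = 0.224; DESeq2 adjusted p = 0.0762), a 1.30-fold difference. Together with ENSRNOT00000088478, which had 60, 160 and 130 counts in Normal, 50, 143 and 124 in Model and 171, 78 and 65 with the compounds, it makes up gene row ENSRNOG00000059883. Scaled to the gene table, that row was at 68.3 ± 6.50 CPM in Normal, 73.1 ± 6.71 in Model and 87.1 ± 7.04 with the compounds (SD, n = 3). Its log2 fold change of treated against Normal was 0.35 ± 0.09 (edgeR adjusted p = 0.0577 over the gene table).

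ENSRNOT00000076154 (1163 nt) was lower by its means. It was at 306, 346 and 332 CPM in Normal, 327, 261 and 317 in Model and 285, 205 and 219.7 with the compounds, with a log2 fold change of -0.47 ± 0.14 (edgeR adjusted p = 0.542). The treated libraries lay below the Normal libraries, and treated libraries 2 and 3, which have the smallest totals, were the lowest. ENSRNOT00000077404 (45.9 ± 2.51 CPM in Normal, 31.3 ± 5.20 CPM treated), ENSRNOT00000089245 (44.9 ± 8.43 and 31.0 ± 4.23) and ENSRNOT00000090624 (159.9 ± 35.9 and 115.8 ± 9.78; SD, n = 3) had edgeR adjusted p of 0.652, 0.672 and 0.681, and the last overlapped between the groups.

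ENSRNOT00000079245 (1828 nt) had 51, 16 and 14 counts in Normal, 21, 0 and 0 in Model and 2, 0 and 0 with the compounds. Counts were thus present in all Normal libraries and in replicate 1 of each other group, and the treated and Normal libraries did not overlap. Its mean of 11.6 counts rests mostly on Normal, the group in which it is high. The row is identical to gene row ENSRNOG00000054742. It did not pass in either table (edgeR adjusted p = 0.674 over the lncRNA table and 0.202 over the gene table), and with 0 or 2 counts in the treated libraries no fold is given.

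On the higher side, ENSRNOT00000079931 was at 5.83 ± 0.684 CPM in Normal and 12.9 ± 1.18 CPM with the compounds (SD, n = 3; 6, 7 and 7 counts against 18, 10 and 10), ENSRNOT00000088090 at 14.0 ± 8.11 and 26.7 ± 2.85 CPM, and ENSRNOT00000087564 at 20.4 ± 5.62 and 32.6 ± 5.69 CPM. ENSRNOT00000090380 was at 2.62 ± 0.0870 and 16.6 ± 13.4 CPM, overlapped through treated library 1, and had a log2 fold change of 2.48 ± 0.99 (edgeR adjusted p = 0.676). Without treated library 1 it was 3.15, with an edgeR adjusted p of 0.0226. The others had edgeR adjusted p of 0.648 to 0.674.

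**Figure D5:**
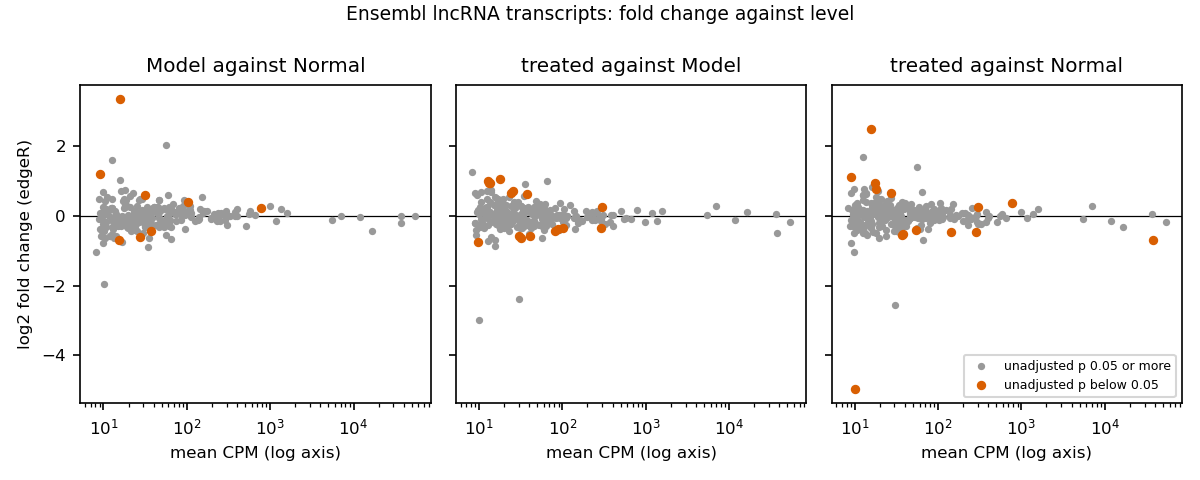
Log2 fold change of the 252 tested Ensembl lncRNA transcripts (vertical) against their mean CPM (horizontal, log axis) in the 3 comparisons, with transcripts at an unadjusted edgeR p below 0.05 in orange, 8, 16 and 14 in number. Most points lie close to 0, and the widest scatter is among transcripts of low CPM.

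The transcripts could be read again at the gene level in the gene table. The edgeR common dispersion, as a biological coefficient of variation over all tested rows, was 8.87% there and 34.7% in the lncRNA table. These values describe different sets of rows. The 145 identical rows have the same counts in both tables, so their replicates differ no less. Of the 145 gene rows identical to a transcript, edgeR called 0 for Model against Normal, where 0 of 12943 genes were called (0%), 0 for treated against Model, against 0.919% of genes, and 0 for treated against Normal, against 2.67%. At an unadjusted p below 0.05 there were 9, 8 and 10 of the 145, or 6.21%, 5.52% and 6.90%, against 4.25%, 12.6% and 18.5% of genes. The smallest adjusted p were 0.999, 0.129 and 0.125. The gene shares cover all tested genes and were not matched for count level. They therefore do not show that these transcripts respond less than genes do. Of the 30 rows that are sums of 2 or 3 transcripts, 0 were called in each comparison, with 1, 3 and 2 at an unadjusted p below 0.05. ENSRNOG00000061096, the gene row of ENSRNOT00000082705, had a treated against Normal log2 fold change of -0.69 ± 0.21 (edgeR adjusted p = 0.155), and ENSRNOG00000058555, that of ENSRNOT00000079055, one of -0.15 ± 0.06 (edgeR adjusted p = 0.162).

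These tests do not show that the transcripts are alike between the groups. The median SE over the 252 was 0.262 to 0.264. By a normal approximation, a transcript of typical precision has a 95% interval of about 0.51 to 0.52 on either side of its log2 estimate. The F test allows for an uncertain spread, so its own interval would be wider. The median size of the change, regardless of sign, was 0.176, 0.177 and 0.185, against 0.188, 0.215 and 0.220 for all tested lncRNAs. Estimates of 2-fold or more in either direction were found for 7, 5 and 7 of the 252, or 2.78%, 1.98% and 2.78%, against 4.01%, 4.58% and 4.94% of all tested lncRNAs.

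The spread within groups was close to that of other lncRNAs of similar counts up to 1000 counts. Under a mean of 30 counts the median CV within groups was 29.95% for 123 Ensembl, 31% for 3680 NONCODE and 34.1% for 494 assembled transcripts. These 123 include tested Ensembl rows with a mean below 10, outside the set studied here. At a mean of 30 to 100 counts the median CV within groups was 17.9% for 88 Ensembl, 19.2% for 1895 NONCODE and 20.1% for 533 assembled transcripts, and at 100 to 1000 counts it was 11.2%, 12.0% and 14.1%. At 1000 counts or more it was 13.9% for 11 Ensembl, 7.62% for 110 NONCODE and 26.6% for 8 assembled transcripts. These differences were not tested. Among transcripts at the edge of the rule, ENSRNOT00000079931 and ENSRNOT00000091794 had a mean of 10.0 counts and ENSRNOT00000093023 of 10.3, while ENSRNOT00000090861 and ENSRNOT00000093527, at 9.78, and ENSRNOT00000092947, at 9.67, were left out.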

How the data were processed

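Strand-specific libraries were made from column-purified total RNA, per the labels' protocols. The submitters' processing notes name CASAVA 1.8 and the genome build mRatBN7.2. No source used here gives the aligner, counting program, strand setting or annotation release, so transcripts that overlap or lie antisense to other genes are uncertain. The authors deposited whole-number counts and FPKM values in 2 tables, per the file headers, 1 of genes and 1 of lncRNA transcripts. Lengths were recovered from count and FPKM through rows shared by both tables.

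Counts of the whole lncRNA table were tested with edgeR 4.0.16 in R 4.3.3 (TMM, filterByExpr with a minimum count of 10, robust quasi-likelihood fit of all 9 libraries, group as the only term), which kept 8653 lncRNAs and 252 of the 253 transcripts. Adjusted p are Benjamini-Hochberg values over all tested lncRNAs, called below 0.05. The SE is the log2 fold change over the square root of F. The fit was run on simulated data with known fold changes, drawn from the means and dispersions of these data. That run checked the sign of the calls and that larger changes were called more often. It does not tell which changes could be detected among these transcripts. Named transcripts are those called, the 5 with the smallest p per direction and comparison, the 15 with the highest FPKM, the 5 with the largest gap and those next to the threshold. The transcripts and lists were chosen with earlier results of these data known. DESeq2 1.42.0, other scalings and filters, fits of 2 groups, a replicate block and leaving out each library were alternatives; the links to gene rows and the fit of the gene table were added after seeing the data. For links, partners with under 9 counts in all and rows equal to a gene row were left out.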

Additional observations from a re-analysis of the deposited data

How the results depend on the processing

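The 0 calls among the 252 tested transcripts held in all 3 comparisons with DESeq2, upper-quartile factors, gene-table library sizes, no count filter, a minimum count of 20, robust settings off and the fit of the gene table. With the replicate number as a block (replicate block) the count was also 0 in each comparison. Over all tested lncRNAs, same-numbered libraries did not deviate together, with correlations of -0.0788 to 0.0127. These correlations do not describe single transcripts. Leaving out 1 library gave 0 to 1 for Model against Normal, 0 to 0 for treated against Model and 0 to 1 for treated against Normal. The calls were ENSRNOT00000090380 without treated library 1 in both, and ENSRNOT00000090050 without Normal 1, where the other Normal libraries are at 0 counts (edgeR adjusted p = 0.0429). A fit of Normal and Model alone gave 1 call. An unadjusted p below 0.05 gave 8, 16 and 14. Of 37 fold changes of named transcripts recomputed from the lncRNA table, those with the smallest p and those of the 7 most abundant transcripts for treated against Normal, 1 changed sign. It was that of ENSRNOT00000093096, treated against Normal, which was 0.048 and became -0.0090 without Normal 1 and -0.0020 without treated 3, in a range of -0.0090 to 0.115 over the libraries left out (edgeR adjusted p = 0.950 with all 9). With gene-table library sizes the median log2 fold change was -0.063 for Model against Normal and 0.084 for treated against Model. The median of mean counts over the 253 transcripts was 37.8; whether depth limits the number of calls was not tested.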

Other observations

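One of the 253 transcripts, ENSRNOT00000078093 (224 nt), did not pass the filter on low counts. It had 2, 96 and 1 counts in Normal, 2, 1 and 2 in Model and 2, 1 and 2 in the treated group, so its mean of 12.1 counts rests on Normal 2.

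Besides the identical rows, 3 transcripts lay within 0.5% of a gene row in summed difference. ENSRNOT00000093096 differed from ENSRNOG00000062127 by at most 7 counts in a library, at 26903 to 55986 counts. ENSRNOT00000079148 differed from ENSRNOG00000052421 by 2 counts in all, and ENSRNOT00000087909 from ENSRNOG00000058784 by 1 count in all. These 3 pairs were not counted among the 197.

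ENSRNOT00000086128, which belongs to no list above, was at 0 in 2 of the 9 libraries, with 0, 18 and 0 counts in Normal, 16, 19 and 28 in Model and 33, 17 and 4 in the treated group. It was picked after its values were seen.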
